A study of Mus musculus with 2 samples.

Results

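The chloride cotransporters and the WNK-SPAK kinases that act on them were examined as a set of 8 genes in the left cerebral cortex of 10-day-old mice. The genes were chosen by name: the cotransporters Slc12a2, Slc12a5 and Slc12a7, the kinases Wnk1, Wnk2 and Wnk3, and the kinases Stk39 and Oxsr1. All 8 were found among the 55536 genes with an Ensembl identifier in the deposited tables. Total RNA of 2 female B6CASTF1/J mice, first-generation hybrids of C57BL/6J and CAST/EiJ, was sequenced after reduction of ribosomal RNA, from 300 ng of RNA per library with ERCC spike-ins, which are synthetic control transcripts. The labels name no treatment or engineered allele and give the animals as biological replicates 1 and 2. They form 1 group, and no second group was analysed here. Comparisons are therefore between genes or transcripts within a library, or between the animals. With 2 values the smallest exact two-sided p is 0.5, and no p-value is given.

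SLC12 proteins move chloride across the membrane together with potassium or sodium, and the gradient they leave determines which way chloride flows when a GABA-A receptor opens. Slc12a2 (NKCC1) carries chloride into cells, whereas Slc12a5 (KCC2), a transporter of neurons, carries it out. WNK kinases sense chloride and cell volume and activate the kinases SPAK (Stk39) and OSR1 (Oxsr1), which phosphorylate the cotransporters, switching NKCC1 on and potassium-chloride cotransporters off. In rodent cortex the first weeks after birth are known as the period in which KCC2 accumulates.

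Several results turn on which exons the transcripts held. Sequences of several of those exons are shown here, 5′ to 3′, from the GENCODE M21 transcripts (mm10). Slc12a5 has 2 alternative first exons, whose start sites lie 7181 bases apart. Each has its own start codon, so that the proteins KCC2a and KCC2b differ at the N-terminus. The coding part of exon 1a, at chr2:164960883-164961003, is shown with its start codon in capitals.
Slc12a5 exon 1a: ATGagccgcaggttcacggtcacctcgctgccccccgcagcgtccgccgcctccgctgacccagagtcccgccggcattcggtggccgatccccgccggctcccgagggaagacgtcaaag

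Slc12a5 also has a 15-base exon at chr2:164996864-164996878, in capitals below between 15 bases of each neighbouring exon. Its length keeps the reading frame.
Slc12a5 15-base exon: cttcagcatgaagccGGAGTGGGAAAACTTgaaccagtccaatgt

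In Wnk1 a large exon named HSN2, known from human families in which its mutation causes a sensory and autonomic neuropathy, is spliced in after exon 8 of the leading transcript Wnk1-202. It spans chr6:119962397-119963632 on the minus strand and adds 412 codons. The first line gives the join into the HSN2 exon (Wnk1-203) and the second the join where it is skipped (Wnk1-202), with the shared 24 bases of exon 8 in lower case and the first 48 bases that follow in capitals.
Wnk1 with HSN2: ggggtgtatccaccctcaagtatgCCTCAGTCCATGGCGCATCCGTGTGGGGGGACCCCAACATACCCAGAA
Wnk1 without HSN2: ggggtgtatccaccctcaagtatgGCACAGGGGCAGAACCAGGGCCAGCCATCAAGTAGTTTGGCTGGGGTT

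Wnk2 has alternative in-frame exons of 99 bases at chr13:49050484-49050582 and 45 bases at chr13:49044374-49044418, both on the minus strand. In Wnk3 an internal exon has a long form that adds 141 bases, or 47 codons, at chrX:151293901-151294041. Alternative bases are in capitals, after the last 12 bases that both Wnk3 forms share.
Wnk2 99-base exon: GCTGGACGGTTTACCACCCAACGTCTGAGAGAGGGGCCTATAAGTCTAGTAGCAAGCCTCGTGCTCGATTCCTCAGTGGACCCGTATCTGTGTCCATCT
Wnk2 45-base exon: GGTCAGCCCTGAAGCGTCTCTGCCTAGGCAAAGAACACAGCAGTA
Wnk3 long form: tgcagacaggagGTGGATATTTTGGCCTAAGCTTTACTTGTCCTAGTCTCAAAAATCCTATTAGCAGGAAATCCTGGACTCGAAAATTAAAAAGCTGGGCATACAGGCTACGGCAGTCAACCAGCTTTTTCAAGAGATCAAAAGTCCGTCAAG

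Gene positions are those of GENCODE M21 on mm10, counted from 1. Slc12a5 (ENSMUSG00000017740.17) occupies chr2:164960802-164999731 on the plus strand and Stk39 (ENSMUSG00000027030.15) chr2:68210445-68472268 on the minus strand. Wnk1 (ENSMUSG00000045962.16) lies at chr6:119923969-120038672 on the minus strand and Oxsr1 (ENSMUSG00000036737.12) at chr9:119238432-119322427 on the minus strand. Wnk2 (ENSMUSG00000037989.15) lies at chr13:49036303-49148014 on the minus strand and Slc12a7 (ENSMUSG00000017756.9) at chr13:73733094-73816754 on the plus strand. Slc12a2 (ENSMUSG00000024597.11) lies at chr18:57878678-57946821 and Wnk3 (ENSMUSG00000041245.13) at chrX:151198078-151320152, both on the plus strand.

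Replicate 1 had 29990965 expected reads and replicate 2 had 31156256, of which the 8 genes took 31725 and 32992. Levels are in TPM, a share of all transcripts scaled for their length, so levels of different genes can be set side by side. Where both quantifications are named, the first rests on alignments to the transcriptome and the second, the alignment-free one, on the reads directly. Neuronal markers had the highest levels of the marker lists, with a median over 5 genes of 521.61 and 501.3 TPM in replicates 1 and 2. Of 5 choroid plexus genes, markers of an epithelium rich in Slc12a2, only Ttr reached 1 TPM in both libraries, at 3.98 and 9.70 TPM, and the list summed to 5.87 and 11.76 TPM. The kidney tubule genes Umod and Aqp2 had 0 reads, which allows up to 3 reads by counting error. In whole tissue, fewer cells of a type and less RNA per cell cannot be told apart.

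All 8 genes had 1 TPM or more in both libraries, as did 13003 of 22015 nuclear protein-coding genes. The neuronal exporter Slc12a5 stood far above the rest. It had 172.84 TPM in replicate 1 and 156.80 TPM in replicate 2 (164.8 ± 11.3, SD, n = 2, as for every SD below), from 12875 and 13979 expected reads. That placed it at rank 501 of 22015 nuclear protein-coding genes, in the top 2.28%. None of the other 7 genes exceeded 58.07 TPM in either library.

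The WNK kinases followed. Wnk1, the ubiquitous member, had 58.07 and 54.64 TPM (56.4 ± 2.43), at rank 2086. Wnk2, a member enriched in brain, had 55.05 and 53.33 TPM (54.2 ± 1.22), at rank 2199. The libraries of Wnk1 and Wnk2 overlapped, and their order differed between replicates in the alignment-free tables, so neither was set above the other. Wnk3, the X-linked member expressed in brain, was lower, with 20.19 and 17.14 TPM (18.7 ± 2.16).

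Both kinases of the second tier were of moderate level. Stk39, which encodes SPAK, had 25.47 and 23.61 TPM (24.5 ± 1.32), and Oxsr1, which encodes its close relative OSR1, had 20.72 and 18.54 TPM (19.6 ± 1.54). Oxsr1 and Wnk3 overlapped between libraries, whereas Stk39 was above Oxsr1 in both.

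The importer Slc12a2 and the exporter Slc12a7 (KCC4), which is best known from kidney and inner ear, were lowest. Slc12a2 had 12.95 and 12.37 TPM (12.7 ± 0.410), at rank 7581. Slc12a7 had 3.60 and 3.75 TPM (3.68 ± 0.106), at rank 11132. Both lay below 16.5 TPM, the median of the 13003 protein-coding genes with 1 TPM or more in both libraries, while the other 6 genes lay above it. The Slc12a7 level rests on 222 and 210 expected reads, against 1528 or more in each library for every other gene of the set.

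Of the 7 steps between neighbours in this order, the 5 other than Wnk1 with Wnk2 and Oxsr1 with Wnk3 showed no overlap between libraries. The credible intervals of the deposited tables, of unstated level, also lay apart in those 5 steps in both libraries. The alignment-free tables gave higher means in the same order, from 1.32-fold higher for Slc12a7 (5.13 and 4.55 TPM) to 1.82-fold for Stk39 (40.7 and 48.5 TPM). Slc12a5 there had 225.8 and 212.5 TPM. Summing the transcripts annotated as protein-coding moved Wnk3 to 11.78 and 9.88 TPM, below Slc12a2 at 12.29 and 11.86 TPM, and Wnk1 to 39.24 and 39.29 TPM, below Wnk2.

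**Figure D1:**
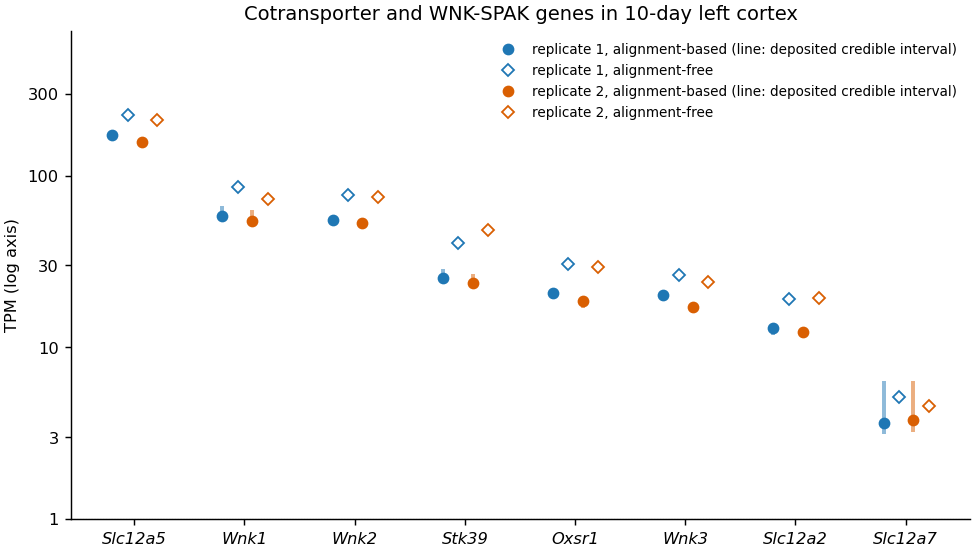
TPM of each gene on a log axis in replicate 1 (blue) and replicate 2 (orange), from the alignment-based tables (filled circles, with the deposited credible interval as a line) and the alignment-free tables (open diamonds). Slc12a5 lies above every other gene at 156.80 TPM or more, and Slc12a7 lowest at 3.60 and 3.75 TPM.

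Ratios between genes were taken within each library, as log2 of TPM with 0.1 added to each gene, and counted as larger than the spread between animals if the sign was shared and the mean was over 2 SD. Of 8 ratios, 7 met this in both quantifications. These are differences between genes in 2 animals at a single age, not changes over time.

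The importer Slc12a2 lay between the exporters Slc12a5 and Slc12a7. Slc12a5 over Slc12a2 had log2 ratios of 3.73 and 3.65 in replicates 1 and 2, or 13.3-fold and 12.6-fold. The tissue also held astrocytes (Slc1a3, 145.30 and 132.48 TPM) and endothelium (Cldn5, 41.94 and 41.98 TPM). These RNA ratios therefore do not give the balance of chloride transport within neurons. Slc12a5 exceeded Slc12a7 by log2 ratios of 5.55 and 5.35, a mean of 5.45 ± 0.14 or 43.6-fold. Since only 46.5% of the Slc12a7 level came from its coding transcript, the same ratio over protein-coding transcripts alone was wider, at 6.37 on the log2 scale. The coding share was 44.5% and 48.5% in the alignment-free tables, but 75.7% and 80.8% by expected reads. Slc12a7 was below Slc12a2 by 3.38-fold (log2 ratios -1.82 and -1.70), with a log2 ratio of -2.75 over protein-coding transcripts.

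Among the kinases, differences were smaller. Wnk1 over Wnk2 had log2 ratios of 0.08 and 0.03, which did not exceed the replicate spread, and log2 ratios of 0.16 and -0.05 in the alignment-free tables. Over protein-coding transcripts alone Wnk1 was the lower of the pair, with a mean log2 ratio of -0.46. Wnk2 exceeded Wnk3 by 2.90-fold (log2 ratios 1.44 and 1.63) and Wnk1 exceeded Wnk3 by 3.02-fold (1.52 and 1.67). Over protein-coding transcripts the ratio of Wnk2 over Wnk3 was 2.32 on the log2 scale.

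Of the SPAK and OSR1 genes, Stk39 exceeded Oxsr1 by 1.25-fold, with log2 ratios of 0.30 and 0.35, and the alignment-free tables put it 1.47-fold above Oxsr1 (0.40 and 0.71 on the log2 scale). The 3 WNK genes summed to 133.31 and 125.11 TPM, against 46.19 and 42.15 TPM for Stk39 and Oxsr1 together. The WNK sum was 2.92-fold that of the kinases they activate (log2 ratios 1.53 and 1.57), or 2.42-fold in the alignment-free tables. RNA levels do not measure the amount or the activity of the kinases.

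**Figure D2:**
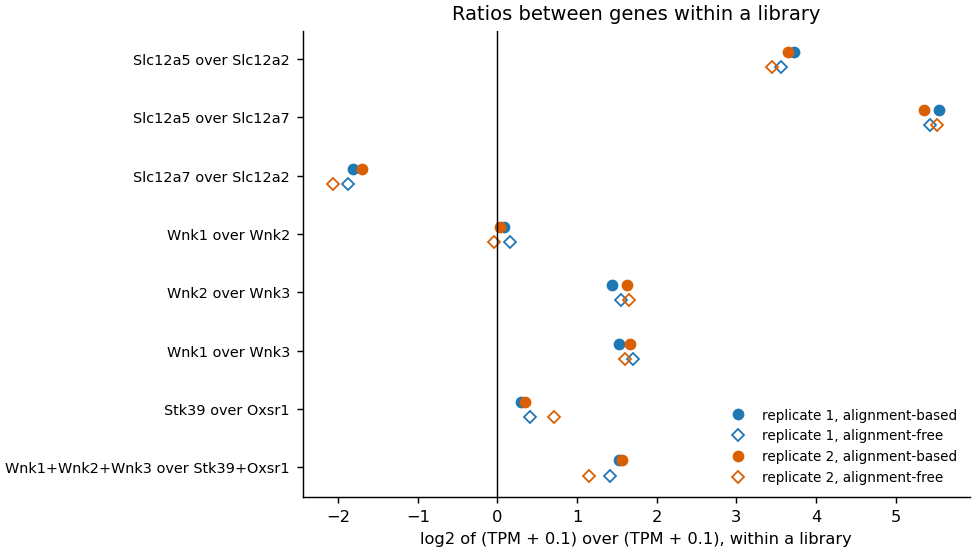
Log2 ratio of the first gene named over the second, within replicate 1 (blue) and replicate 2 (orange), from the alignment-based (filled circles) and alignment-free tables (open diamonds); the vertical line marks equal levels. Ratios lie away from 0 except for Wnk1 over Wnk2, whose points fall between -0.05 and 0.16.

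The paralogues were also checked for shared sequence, since reads of near-identical genes cannot be divided with certainty. No word of 31 bases in a transcript of one of the 8 genes occurred in a transcript of another of them, on either strand. Words shared with any other annotated gene were 0.25% or less of each gene's words, except for Wnk3. There 440 of 10639 words (4.14%) were shared, all with A230072E10Rik, a gene transcribed from the opposite strand across Wnk3 exons. A230072E10Rik had 0.34 and 0.42 TPM, from 19 and 25 expected reads. The sources used here do not say whether counting used the strand, so reads of these overlapping genes cannot be told apart.

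The 2 animals differed little in these genes. With expected counts scaled by TMM, the log2 ratio of replicate 1 over replicate 2 ran from -0.10 (Slc12a5) to 0.10 (Wnk3), and the median size over the 8 genes was 0.075, against 0.089 over 12689 genes with a mean of 100 reads or more. That background was not matched for read number. Apart from Slc12a7 (216), the members had mean reads from 1535 (Oxsr1) to 13427 (Slc12a5). None of the 8 genes was 1.5-fold or more apart in either direction, where 1.76% of all 12689 genes were (223 genes). At so small a share, 0 of 8 is near the background. By TPM the log2 ratio of Slc12a5 was 0.14, and the sign turned in 5 of the 8 genes (Slc12a2, Slc12a5, Slc12a7, Wnk2 and Stk39), so their direction between the animals depended on the scale. Oligodendrocyte-lineage genes did differ between the libraries, with a sum over 5 genes of 220.83 and 356.79 TPM, led by Mbp at 90.02 TPM in replicate 1 and 180.83 TPM in replicate 2. Their part in the members' values was not tested, nor was that of Ttr.

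For most of the 8 genes a single transcript or transcript class made up the level, with Wnk3, Wnk1 and Slc12a7 as exceptions. The leading transcript was the same in both libraries and both quantifications for 8 of 8 genes. Protein-coding transcripts held 100% of the Wnk2 level, 95.4% ± 0.688 of Slc12a2, 90.7% ± 1.61 of Stk39, 90.6% ± 1.45 of Slc12a5 and 84.1% ± 2.14 of Oxsr1. They held 69.7% ± 3.09 of Wnk1, 57.99% ± 0.497 of Wnk3 and 46.6% ± 4.22 of Slc12a7.

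The remainder was of different kinds. In Wnk1 it was mostly retained-intron transcripts, 31.7% in replicate 1 and 25.6% in replicate 2, though 18.5% and 15.2% in the alignment-free tables. A single transcript, Wnk1-208, gave 15.2% and 15.4% of the gene. In Wnk3 it was processed transcripts, which carry no annotated coding sequence, at 41.7% and 42.4%. In Slc12a7 retained introns held 39.0% and 37.8%, though 26.1% and 17.9% in the alignment-free tables, where processed transcripts held 14.9% and 24.5%.

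**Figure D3:**
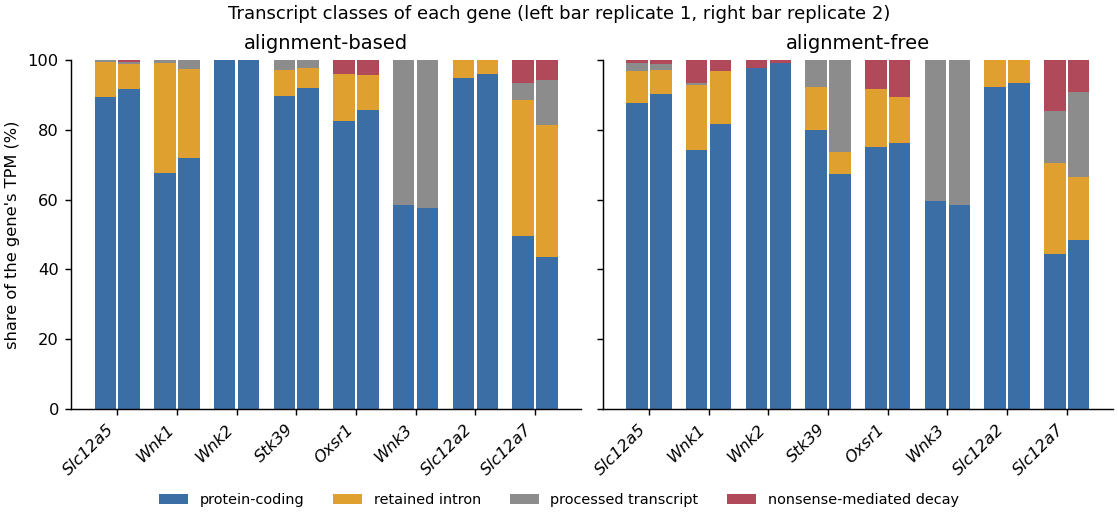
Share of each gene's TPM by transcript class, with replicate 1 as the left bar and replicate 2 as the right bar of each pair, in the alignment-based (left panel) and alignment-free tables (right panel). Wnk2 is 97.6% or more coding, whereas Wnk3 has 40.5% to 42.4% processed transcripts in both panels and Slc12a7 is under 50% coding.

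For the cotransporters, Slc12a2 was nearly uniform. Slc12a2-201, its full-length transcript of 27 exons and 1206 codons, had 12.29 and 11.86 TPM, 95.4% of the gene. The rest was the retained-intron transcript Slc12a2-202, from 54 and 46 expected reads.

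Slc12a5 transcripts came more from exon 1b, the KCC2b start, than from exon 1a. Transcripts that begin at exon 1b had 107.64 and 106.86 TPM, or 62.3% and 68.2% of the gene. Those that begin at exon 1a had 47.83 and 38.37 TPM, or 27.7% and 24.5%. The alignment-free shares were close, 61.7% and 65.0% for exon 1b and 29.1% and 28.3% for exon 1a. KCC2b is known as the main form of the postnatal rodent cortex, and KCC2a as a form that stays low.

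Single Slc12a5 transcripts differed more between the quantifications than their starts did. The leading one, Slc12a5-201 (exon 1b, 1115 codons), had 65.63 and 72.88 TPM, 42.2% ± 6.02 of the gene, against 53.97% in the alignment-free tables. The short coding transcript Slc12a5-208, which shares exon 1b and has 231 codons, took 24.02% and 21.03%, against 11.0% and 4.91% in the alignment-free tables. Among the exon 1a transcripts, Slc12a5-207 had 31.60 and 30.98 TPM and Slc12a5-209 had 16.02 and 6.75 TPM. The alignment-free tables gave the opposite order, with 9.51 and 5.26 TPM for Slc12a5-207 and 52.86 and 51.1 TPM for Slc12a5-209.

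The 15-base exon shown above is present in Slc12a5-201 and Slc12a5-209 and absent from Slc12a5-207. Among these 3 full-length coding transcripts its share was 72.1% and 72.0%, but 94.5% and 97.1% in the alignment-free tables. The replicates were close within each quantification, and the quantifications were not. Exon 1b, by contrast, held 57.95% and 65.9% of the 3 transcripts, and 64.0% and 69.0% in the alignment-free tables.

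The promoters of both Slc12a5 starts are shown from RefSeq (GRCm38.p6, plus strand, 300 bases around each start), since the 2 start sites carried different shares of the transcripts. The first covers chr2:164960596-164960895 and the second chr2:164967738-164968037. Capitals mark the motif CACGTG, a site bound by USF factors.
Slc12a5 promoter of exon 1a: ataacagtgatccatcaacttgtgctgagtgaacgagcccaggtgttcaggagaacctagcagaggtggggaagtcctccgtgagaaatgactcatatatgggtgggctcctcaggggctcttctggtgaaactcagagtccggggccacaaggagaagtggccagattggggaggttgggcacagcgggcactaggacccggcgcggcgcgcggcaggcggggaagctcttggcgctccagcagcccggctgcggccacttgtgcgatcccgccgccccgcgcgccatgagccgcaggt
Slc12a5 promoter of exon 1b: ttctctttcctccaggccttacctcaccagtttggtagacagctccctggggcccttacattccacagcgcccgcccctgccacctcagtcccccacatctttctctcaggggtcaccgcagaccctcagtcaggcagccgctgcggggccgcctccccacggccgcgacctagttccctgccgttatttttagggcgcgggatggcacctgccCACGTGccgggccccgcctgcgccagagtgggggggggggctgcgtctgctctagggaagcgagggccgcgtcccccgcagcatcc

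CACGTG, which reads the same on both strands, occurred once in the exon 1b promoter and was not found in the exon 1a window. It occurs in 7.15% of 32817 promoters of that length. Among the other members it occurred once in each of the overlapping Slc12a7 windows and was not found for Wnk1, Wnk2, Wnk3, Stk39 or Oxsr1. Whether the motif bears on the shares of the 2 Slc12a5 starts was not tested. The EGR motifs GCGGGGGCG and GCGTGGGCG, present on either strand in 2.91% and 0.612% of promoters, and TATAAA, present in 13.6%, were found in neither window. GC content was 68.3% for exon 1b and 63.7% for exon 1a, against a median of 52.7% over all promoters, and each window had 21 CpG dinucleotides, against a median of 7. RefSeq promoters matched 7 of the 8 genes.

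Slc12a7 was low and divided. Its coding transcript Slc12a7-201 (1083 codons) had 1.78 and 1.64 TPM, from 168.09 and 169.67 expected reads, or 75.7% and 80.8% of the gene's reads. A retained-intron transcript of 356 bases, Slc12a7-206, had 0.92 and 1.17 TPM from 4.43 and 6.16 expected reads. The alignment-free quantification listed it at 0 TPM. Those few reads carried 25.6% and 31.1% of the alignment-based TPM of the gene.

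In the WNK genes, Wnk1-202, of 28 exons and 2377 codons, led Wnk1 with 18.17 and 15.54 TPM, 29.9% ± 2.00 of the gene. It held 61.8% and 60.3% of the gene's expected reads. Wnk1-208, a retained-intron transcript that shares the 2719-base last exon of Wnk1-202, had 8.83 and 8.42 TPM, against 2.47 and 1.64 TPM in the alignment-free tables. Wnk1-216, an incomplete coding transcript of 5 exons, had 9.12 and 7.70 TPM.

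The HSN2 exon, a sequence of nervous-system forms of Wnk1, was in a minority of transcripts. Among 5 full-length coding transcripts, those with the exon (Wnk1-203 and Wnk1-223) had 3.24 and 3.00 TPM, or 13.97% and 14.2%. The alignment-free shares were 17.2% and 18.1%. A single-exon transcript that covers HSN2, Wnk1-218, had a further 2.97 and 2.11 TPM and is outside these shares. Other alternative exons were mostly included, with 78.4% and 73.5% for the 462-base exon and 88.7% and 85.4% for the 285-base exon. In the alignment-free tables the 462-base exon had 66.1% and 66.9% and the 285-base exon 74.9% and 78.4%.

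Wnk1 has a short form in kidney that starts at an exon after exon 4 and lacks most of the kinase domain. A transcript whose first exon lies in that intron, Wnk1-201, had 0.41 and 1.04 TPM, from 4.2 and 11.66 expected reads. The alignment-free tables listed it at 0.52 and 0 TPM. The alignment-based level was 0.706% and 1.90% of the gene, while the full-length Wnk1-202 had 3563.07 and 3334.19 expected reads.

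Wnk2 was almost wholly coding, 100% in the alignment-based tables and 97.6% and 99.1% in the alignment-free ones. It was led by Wnk2-205 (30 exons, 2149 codons) with 31.06 and 29.41 TPM, 55.8% ± 0.901 of the gene. The alignment-free shares of Wnk2-205 differed more between the animals, at 34.7% and 53.8% (mean 44.2%). The 99-base exon shown above was in 73.7% and 74.8% of 8 full-length coding transcripts by TPM, and in 67.8% and 73.6% in the alignment-free tables. The 45-base exon was in 90.3% and 91.3%, and in 97.7% and 95.1% in the alignment-free tables. A 171-base exon at chr13:49051357-49051527 was in 83.4% and 83.5%, and in 70.1% and 78.5% in the alignment-free tables. Transcripts that end in the distal last exon (chr13:49036303-49036505) made up 76.5% and 77.9% of the gene. Most of the rest was Wnk2-206, which ends upstream of it, with 9.72 and 9.70 TPM.

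The record of highest level in Wnk3 was not a coding one. Wnk3-203, a processed transcript of 5 exons, had 8.07 and 7.26 TPM, 39.97% and 42.4% of the gene, with 38.4% and 41.5% in the alignment-free tables. Its last exon is 5354 bases long and runs 4966 bases past the end of the coding transcript Wnk3-205, whose last exon has 388 bases. The coding transcript Wnk3-201 (1789 codons), whose 3511-base last exon also runs past that end, was listed at 0 TPM in both libraries, and at 1.23 and 0.74 TPM in the alignment-free tables. Among the 3 full-length coding Wnk3 transcripts, the long form of the alternative exon held 44.99% and 37.4%, and 44.5% and 34.7% in the alignment-free tables.

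**Figure D4:**
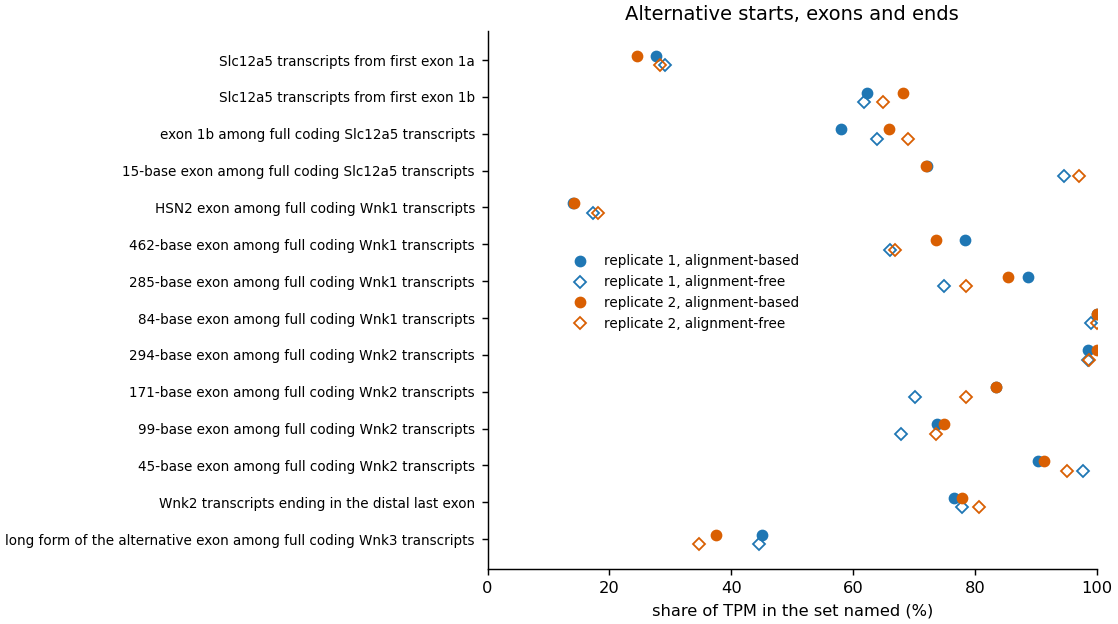
Share of TPM, in percent, of each alternative start, exon or end within the set of transcripts named on the left, for replicate 1 (blue) and replicate 2 (orange) in the alignment-based (filled circles) and alignment-free tables (open diamonds). The 15-base Slc12a5 exon shows the widest gap between quantifications, 72.1% and 72.0% against 94.5% and 97.1%.

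SPAK and OSR1 each had a full-length transcript in front. Stk39-201 (18 exons, 556 codons) had 22.82 and 21.69 TPM, 90.7% ± 1.61 of the gene, against 79.9% and 67.4% in the alignment-free tables. Oxsr1-201 (18 exons, 527 codons) had 17.11 and 15.87 TPM, 84.1% ± 2.14 of the gene, against 75.2% and 76.3% in the alignment-free tables. Its main companion was the retained-intron transcript Oxsr1-203, with 13.5% and 10.1%. By expected reads the shares of Stk39-201 were 94.98% and 96.1%, and those of Oxsr1-201 were 95.4% and 95.8%.

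Genes known to work with these 8 were read from 4 lists with 28 genes in all, of which 25 had 1 TPM or more in both libraries. Among all nuclear protein-coding genes 13003 of 22015 did. The 3 below that level were all SLC12 genes: the kidney cotransporters Slc12a1 (0.01 and 0.02 TPM) and Slc12a3 (0.15 and 0.16 TPM), and Slc12a8 (0.67 and 0.48 TPM). Slc12a8 had 2.03 and 2.17 TPM in the alignment-free tables, where 26 of the 28 genes reached 1 TPM. Of the other SLC12 genes, Slc12a9 was at 14.27 and 14.04 TPM and Slc12a4 (KCC1) at 10.05 and 9.73 TPM. Slc12a4 thus lay below its fellow exporter Slc12a5 and above Slc12a7 in both libraries.

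The 6 kinase partners were all above 1 TPM. Wnk4, the family member best known from the distal nephron, was lowest with 2.07 and 1.74 TPM, below each of Wnk1, Wnk2 and Wnk3. Cab39, which encodes the scaffold MO25 that raises SPAK and OSR1 activity, had 65.99 and 69.08 TPM, above both Stk39 and Oxsr1 in each library. Its paralogue Cab39l had 10.83 and 8.55 TPM. Of the ubiquitin ligase that removes WNK proteins, the scaffold Cul3 had 60.67 and 64.52 TPM. Among its WNK-binding adaptors, Klhl2 had 60.93 and 64.78 TPM, against 11.92 and 11.02 TPM for Klhl3, the adaptor known from kidney.

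The 9 partners and regulators of KCC2 had a median of 93.45 and 88.30 TPM. Creatine kinase B (Ckb), reported to bind KCC2, was highest with 476.74 and 524.25 TPM. Pacsin1 had 100.78 and 88.88 TPM and Arhgef7 had 93.45 and 88.30 TPM, and the protein of each is reported to bind KCC2. Neto2, an auxiliary protein of KCC2, had 73.71 and 65.62 TPM, and Epb41l1, which links membrane proteins to actin, had 132.62 and 129.68 TPM. The BDNF receptor Ntrk2 had 149.14 and 141.28 TPM, its ligand Bdnf 5.82 and 4.99 TPM. The transcription factor Egr4, which is known to raise Slc12a5 transcription, had 15.38 and 19.07 TPM. The repressor Rest, which binds the Slc12a5 gene, was lowest of the list with 2.49 and 2.32 TPM.

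Other routes of chloride and acid-base transport were all above 9 TPM. The anion exchanger Slc4a3 (AE3) had 100.7 and 95.98 TPM, which exceeded the level of Slc12a2. Among the sodium-dependent exchangers, Slc4a10 had 70.09 and 68.95 TPM and Slc4a8 had 41.81 and 39.50 TPM. Only 19.8% of the Slc4a3 level came from protein-coding transcripts. Over those alone the order turned round, with 19.86 and 19.00 TPM for Slc4a3, below Slc4a10 (49.08 and 46.07 TPM) and Slc4a8 (32.99 and 30.95 TPM), and still above Slc12a2 (12.29 and 11.86 TPM). The intracellular chloride transporter Clcn3 had 75.18 and 68.53 TPM and the channel Clcn2 had 25.11 and 22.56 TPM. Protein-coding transcripts made up 45.3% of the Clcn2 level, at 10.43 and 11.16 TPM, below those of Slc12a2. The carbonic anhydrase Car2 had 24.45 and 21.28 TPM, the anion exchanger Slc4a2 had 12.16 and 12.39 TPM, and Car7, a neuronal carbonic anhydrase, was lowest with 9.18 and 9.75 TPM.

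**Figure D5:**
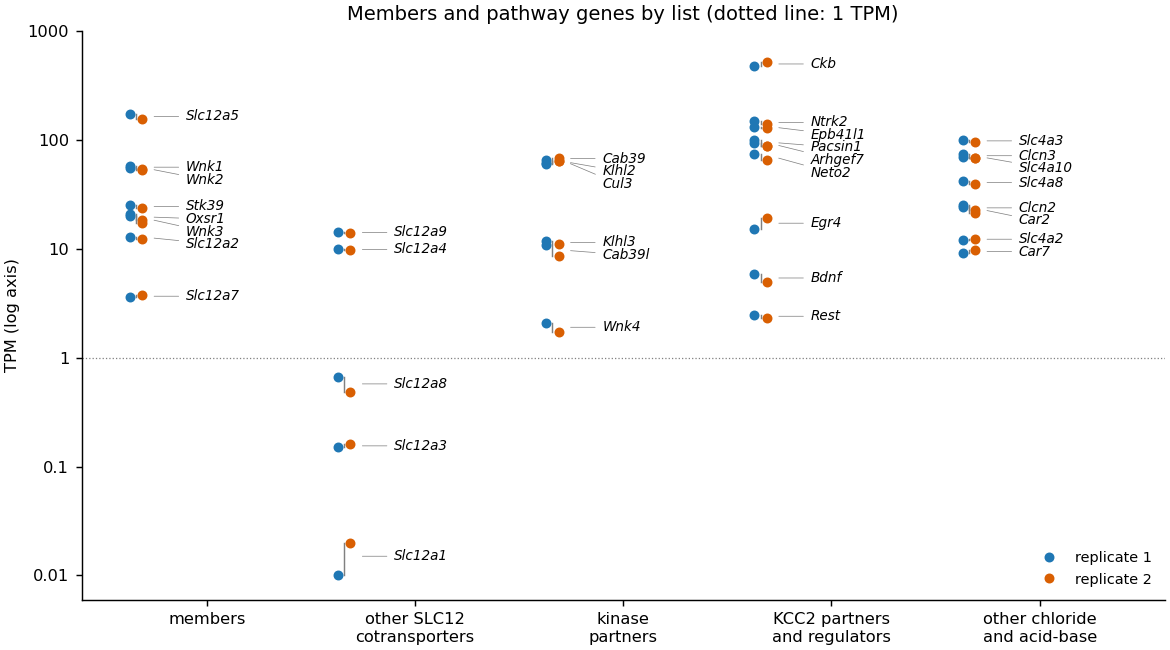
TPM on a log axis of the 8 genes and of the 28 listed pathway genes in replicate 1 (blue) and replicate 2 (orange), by list, with names beside the points and a dotted line at 1 TPM. The values are alignment-based. Only Slc12a8, Slc12a3 and Slc12a1 lie below the line, of which Slc12a8 is above 1 TPM in the alignment-free tables, and Ckb is the highest at 476.74 and 524.25 TPM.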

How the data were processed

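Members, lists and gene pairs were chosen with earlier results of these data known. Per the deposited README files, the authors quantified each library in 2 ways. Alignments to mm10 transcripts of annotation M21 gave the expected counts and TPM for genes and transcripts. The reads themselves gave the estimated counts and TPM of a second, alignment-free transcript table of the authors, summed here per gene. The sources used here give no tool, version or credible level. TPM was scaled by the authors over all rows, spike-ins included. Reads of both parental alleles were quantified against mm10, and no allele was separated.

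Levels are mean ± SD. Replicate ratios used expected counts rounded to whole numbers, TMM factors from edgeR 4.0.16 and 0.5 added to each count; the scaling was tested on simulated data. DESeq2 1.42.0 gave size factors as an alternative. The leading transcript of each gene is named, with some but not all of those whose share reached 5% in either library or quantification. Others that reached it, such as Wnk2-207, Wnk2-211 and Stk39-205, are not described. Wnk1-201, Wnk1-223 and Wnk3-201 did not reach it and are named for their structure. The genes of each list are named by choice, not by a rule on their values. Other steps used Python 3.11.15. Some planned values and 1 sequence are not reported here. Alternatives are in the closing section.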

Additional observations from a re-analysis of the deposited data

How the results depend on the processing

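No paired analysis was possible because 1 group was analysed. No direction reversed among the 7 ratios beyond the spread. In the alignment-free tables the mean log2 ratios moved to 3.50 for Slc12a5 over Slc12a2, -1.97 for Slc12a7 over Slc12a2, 0.56 for Stk39 over Oxsr1 and 1.28 for the WNK sum over Stk39 and Oxsr1. Over protein-coding transcripts alone, Slc12a5 stood at 3.62 over Slc12a2 and 6.37 over Slc12a7, and Slc12a7 at -2.75 over Slc12a2. Wnk1 stood at -0.46 over Wnk2 and 1.85 over Wnk3, Wnk2 at 2.32 over Wnk3, Stk39 at 0.43 over Oxsr1 and the WNK sum at 1.43. With the posterior mean TPM of the deposited tables, Slc12a5 over Slc12a7 was 5.05, Slc12a7 over Slc12a2 -1.36, Wnk1 over Wnk2 0.15, Wnk1 over Wnk3 1.70 and Stk39 over Oxsr1 0.41. Adding 1 TPM gave 3.60 for Slc12a5 over Slc12a2, 5.15 over Slc12a7 and -1.55 for Slc12a7 over Slc12a2. The cause of these moves was not tested.

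All 8 ratios moved by less than 1 SD without a pseudocount and with TPM rescaled over nuclear protein-coding genes, which raised each member's level 2.01-fold to 2.02-fold. Members at the detection level were 7 at 5 TPM, without Slc12a7, and pathway genes 22. The share of all genes at 5 TPM is not given here, so these counts have no background. At 1 TPM the alignment-free tables held 26 of the 28 pathway genes, Slc12a8 included. Exon and start shares in the alignment-free tables, an alternative chosen after seeing the data, moved by more than 1 SD in 11 of 15 cases. Some of these had an SD of 0, so that any shift counted. An 84-base Wnk1 exon moved from 100% to 99.5%, and the distal last exon of full-length coding Wnk2 transcripts from 100% to 99.3%. Ratios of replicate 1 over replicate 2 taken from TPM moved by more than the spread in 7 of 8 genes, with the highest at 0.24 for Wnk3; TPM depends on all other rows. Leaving out either animal leaves 1 library, which gives a value and no test.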
